A study of Drosophila melanogaster with 2 samples.

Results

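The regions described here are peaks of CG13123-GFP chromatin immunoprecipitation sequencing (ChIP-seq) whose summits lay inside the exons of protein-coding genes, away from where transcription starts. Each summit lay over 500 bp from every annotated transcription start site (TSS) and in a coding or 3' UTR exon, and chromosome 4 was left out. The rule used positions only, so the signals below were not used to choose the peaks. It kept 2774 of the 30000 peaks of the relaxed list, which is 9.25%. Of these, 1289 summits lay in coding sequence and 1485 in a 3' UTR. The signal of these peaks was low within the list: their median was 24.7 (quartiles 21.6 and 29.4), against 28.5 for the whole list, whose lowest value was 19.3.

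The chromatin came from mixed-sex Drosophila melanogaster embryos aged 0 to 24 h, taken whole. The embryos were of a transgenic line that stably makes CG13123, a Drosophila protein, with green fluorescent protein (GFP) fused to its C terminus, and an antibody against GFP was used for the precipitation. Whole embryos of all stages were pooled, so the signal cannot be assigned to a tissue or stage. The study has 1 group of 2 samples, which the labels call biological replicates 2 and 3, and peaks from embryos without the tagged protein were not analysed here. The relaxed lists hold peaks and background for each replicate and for both together. A separate list holds the 2704 peaks that passed a comparison of ranks between replicates, the irreproducible discovery rate (IDR). They are the 2704 of highest signal in the relaxed list of both replicates. Signals are values that the authors gave to each peak, on a scale that the sources used here do not state. No read counts came with the lists, so depth is unknown. With 1 group there was no test between conditions, and peaks are not replicates, so shares are given with 95% Wilson intervals that cover counting error only. Coordinates are dm6 and 1-based.

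A coding exon holds the codons that are translated, and a 3' UTR is the part of the messenger RNA that follows the stop codon and often carries sites that control its stability, location or translation. In chromatin, the same DNA can also hold enhancers or binding sites for proteins that organise the genome, and transcribing polymerase passes through it. ChIP records which DNA was recovered with the tagged protein and does not show whether the protein touched that DNA directly.

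The strongest exonic peaks had summits in sequences of very different composition. The following 30-base stretches are centred on the summits of 5 of the strongest of them and are read on the strand of the gene, from the Release 6 genome of RefSeq. They show that a GC-rich end of a coding sequence and 3' UTR stretches of lower GC content both lay under peaks of the IDR list. Capitals mark matches to the searched motifs CAGCTG (an E-box) and AGNNGGCGC on either strand.
Pde1c, coding, chr2L:11816563-11816592, minus strand: CAGCTGcggagccggcAGATGGCGCtgcgg
CG7872, 3' UTR, chrX:15579767-15579796, plus strand: acctggctggtcacaaaaaaagcacgccac
klar, coding, chr3L:506208-506237, minus strand: cctctgggcggccattcaaacgaactacaa
by, 3' UTR, chr3R:9528555-9528584, minus strand: aactggcatttcaaggaatctcgtaccact
scf, 3' UTR, chr3L:1300342-1300371, plus strand: gtttagttgcaacatgttcaataaaatgct

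The GC content of these 30 bases was 76.7% at Pde1c, 53.3% at CG7872 and klar, and 43.3% at by.

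The word AGNNGGCGC was found within 100 bp of the summit at several of the strongest exonic peaks. It was chosen after the sequences and signals had been seen. Its letters are part of the published motif of the insulator protein CTCF. The stretches below hold each site of an exonic peak with a signal of 50 or more whose sequence is shown here, written so that the word reads forward in capitals.
Pde1c, coding, chr2L:11816557-11816586, minus strand: cggagccggcAGATGGCGCtgcggcctaag
klar, coding, chr3L:506255-506284, plus strand: acccagacccaAGGTGGCGCtgctgtgcag
CG10357, coding, chr3L:3616465-3616494, minus strand: taatagtacaAGGTGGCGCtagtaaaatat
Hr4, 3' UTR, chrX:2005999-2006028, minus strand: ctctaaatacAGGTGGCGCcactgaggaat
raskol, 3' UTR, chrX:17751915-17751944, plus strand: cattcaagagtAGAGGGCGCcgcttacttt
pros, 3' UTR, chr3R:11393037-11393066, plus strand: tgctttacaaaAGCAGGCGCagctctgacg
CG9166, 3' UTR, chr3L:1352350-1352379, minus strand: tttcagaaatAGGTGGCGCtagcgtcgctt
HisRS, coding, chrX:18517601-18517630, plus strand: tgcaacgttccAGACGGCGCcctctggcgg

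The middle of the word lay 3 bp from the summit at Hr4, 6 bp at Pde1c, 31 bp at HisRS, 47 bp at klar and 54 bp at CG10357. It lay 57 bp away at raskol, 64 bp at pros and 90 bp at CG9166. The 4 genes from raskol to HisRS fall outside the rule for named genes and are shown because their peaks hold the word.

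Few exonic peaks reached the IDR list. It held 18 of the 2774, or 0.649% (0.411 to 1.02), beside 9.01% of all relaxed peaks. Of these 18, 6 lay in coding sequence, which is 0.465% of the coding summits (0.214 to 1.01), and 12 in a 3' UTR, which is 0.808% of those summits (0.463 to 1.41). By the same TSS distance, 6.79% of intronic and 5.85% of intergenic summits were in the IDR list (6.36 to 7.26 and 5.24 to 6.53), and 17.0% of summits within 500 bp of a TSS were (16.2 to 17.8).

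Coding sequence and 3' UTRs differed in how densely they carried relaxed summits. Counted over the bases of each class that lie over 500 bp from any TSS, coding sequence held 69.9 summits per Mb and 3' UTRs held 253. Introns held 228 summits per Mb and intergenic sequence 131. On this count 3' UTRs stood next to introns among relaxed peaks. Among IDR peaks, the order was different. There 3' UTRs held 2.05 and coding sequence 0.325 per Mb, below the 15.5 of introns and 7.64 of intergenic sequence.

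**Figure D1:**
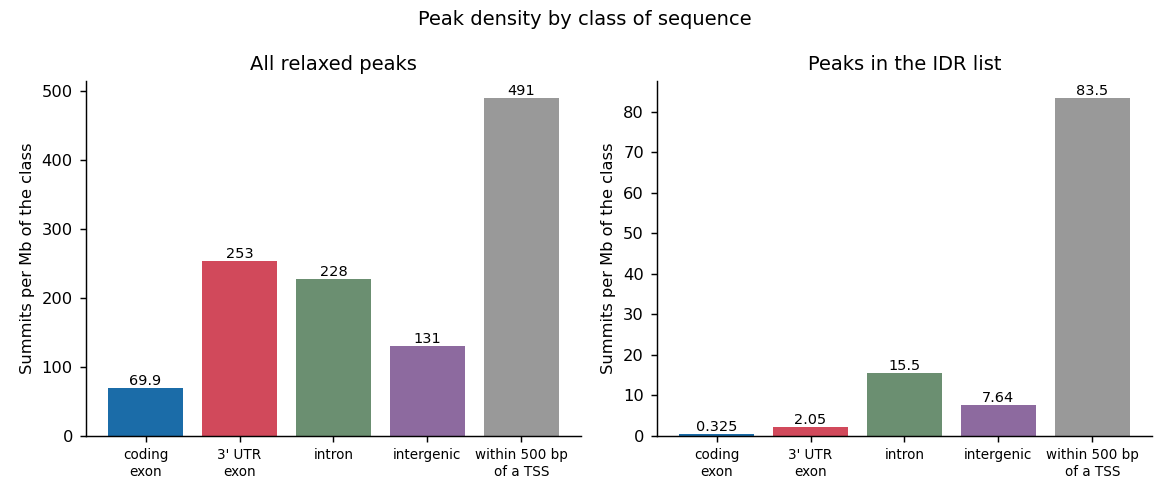
Summits per Mb in each class of sequence, for all relaxed peaks (left) and for peaks in the IDR list (right); bars start at 0 and classes other than the last lie over 500 bp from any TSS. In the relaxed list 3' UTR exons (253 per Mb) stand beside introns (228 per Mb), and in the IDR list both exon classes (0.325 and 2.05 per Mb) are below introns (15.5 per Mb).

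The exonic peak of highest signal lay in otp, which encodes a homeodomain transcription factor of the developing nervous system. Its summit was in the last exon on arm 2R at position 20884599, 91.4% of the way along the coding sequence and 4669 bp from the nearest TSS. The signal was 400 in the list of both replicates (rank 78 of 30000), 255 in replicate 2 (rank 61) and 152 in replicate 3 (rank 103). The otp peak was therefore among the strongest of each list. No other exonic peak of the 2774 ranked as high in any of the 3 lists.

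The next coding peak by signal was in Pde1c, a calcium- and calmodulin-dependent phosphodiesterase of cyclic nucleotides. Its summit lay 20 bases before the end of the coding sequence. Its signal was 232 in the list of both replicates (rank 285), 135 in replicate 2 (rank 296) and 97.6 in replicate 3 (rank 292), so its rank was nearly equal in the 3 lists. The coding peak in klar, a nuclear envelope protein that links organelles to microtubule motors, had a signal of 118, with 71.5 in replicate 2 and 45.3 in replicate 3. It lay in exon 3 of 19, at 9.84% of the coding sequence, and so near the start rather than the end.

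The other 3 coding peaks of the IDR list were weaker. CG10357 had a signal of 96.1 (54.9 in replicate 2 and 41.7 in replicate 3), with its summit 15 bases before the end of the coding sequence. The peak in l(3)mbn had a signal of 89.8 (42.9 and 45.9), and its summit lay 570 bp from a TSS, close to the limit of the rule. CG4822 had a signal of 78.6 (50.9 and 28.6), and its summit is 3' UTR in another of its transcripts. A gene on the opposite strand also spans the CG4822 summit.

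The 12 3' UTR peaks of the IDR list ran from 78.5 to 184, with a median of 96.5. All 12 summits lay in the last exon of the transcript. The highest was in CG7872, with 184 in the list of both replicates (rank 502), 115 in replicate 2 and 68.1 in replicate 3. Its summit lay 75 bases from the transcript end. The peak at CG33307 had 112, with 40.8 in replicate 2 and 66.6 in replicate 3, and was thus ranked higher in replicate 3 (712) than in replicate 2 (3367). A gene on the opposite strand spans this summit.

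In by, which encodes the integrin-linked adhesion protein tensin, the 3' UTR signal was 110 (62.7 in replicate 2 and 45.2 in replicate 3). In scf, a calcium-binding protein first described for supercoiling DNA, it was 103.9 (53.2 and 51.3), with the summit 32 bases from the transcript end. The REG peak, in the gene of a proteasome activator, had 89.6 (57.2 and 32.4). All 3 had a summit within 100 bp in both replicates.

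Of the other 3' UTR peaks in the IDR list, Hr4, a nuclear receptor of the ecdysone response, had a signal of 79.8, with 36.7 in replicate 2 and 42.2 in replicate 3. In qvr, whose product sits on the membrane and acts on a potassium channel needed for sleep, the signal was 86.9 (50.8 and 42.7). Ppa, an F-box protein gene, had 78.5 (46.6 and 31.9), the lowest of the 18. The remaining peaks were stas with 106 (56.4 and 52.9), CG5984 with 103 (49.8 and 51.2), CG9837 with 86.0 (46.2 and 39.9) and CG14505 with 83.9 (57.8 and 25.3). CG14505 showed the lowest replicate 3 signal of the 18. All 18 peaks had a summit within 100 bp in both replicates, and ranks in replicate 2 reached 4079, at Hr4. The IDR list was made by comparing ranks between replicates, so presence in both is not separate evidence for these peaks.

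**Figure D2:**
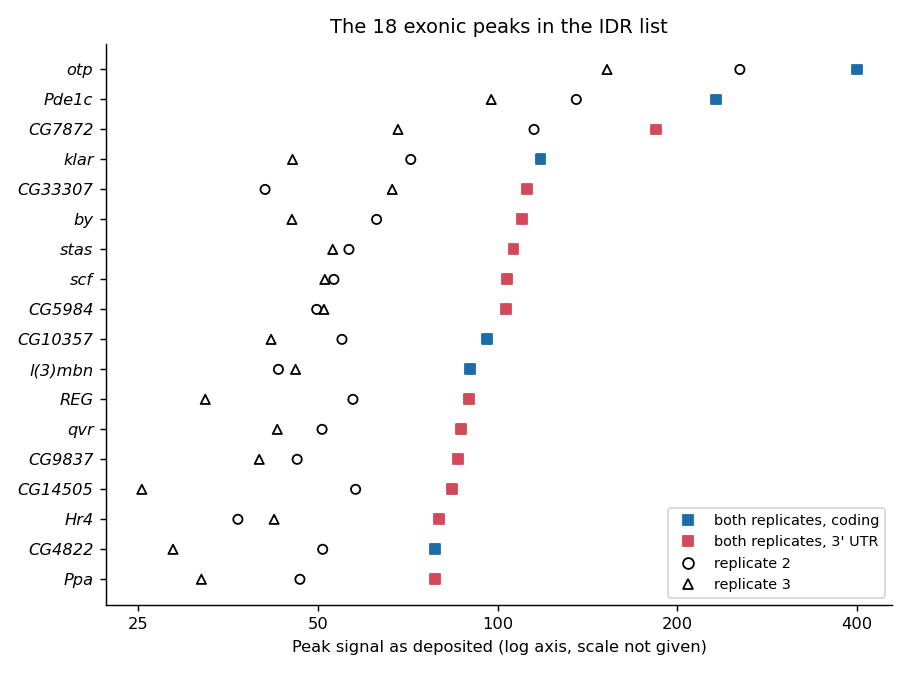
Deposited signal on a log axis for the 18 exonic peaks in the IDR list, by gene; filled squares are the list of both replicates (blue, coding; red, 3' UTR) and open circles and triangles are replicates 2 and 3. The 3 lists have separate scales, so the shapes show the order within each list: otp (400), Pde1c (232) and CG7872 (184) are highest in the list of both replicates.

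Just under the IDR list, the next coding peaks lay in Tim17b1, Uba1, aPKC and Indy. Tim17b1, a mitochondrial protein import component, had a signal of 66.3, with 38.05 in replicate 2 and 24.9 in replicate 3. Uba1, the ubiquitin-activating enzyme, had 61.0 with 47.3 and 12.2. The Uba1 peak was thus ranked 2605 in replicate 2 and 19207 in replicate 3, and its summit is also 5' UTR in another transcript. The polarity kinase aPKC had 56.2 (30.6 and 25), and Indy, a citrate transporter, had 51.3 (25.4 and 20.1). Apart from Uba1, these peaks ranked within the first 10000 of each replicate list.

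The threshold on TSS distance did not fall at a step in signal. The 159 exonic summits that lay 401 to 500 bp from a TSS, just outside the rule, had a median signal of 24.6. The 177 that lay 501 to 600 bp away had 25.7. Of the 2774 peaks, 336 (12.1%) reached with their edge to within 500 bp of a TSS. Of the 18 in the IDR list, 1 lay within 1000 bp of a TSS, 10 from 1001 to 2000 bp and 7 from 2001 to 5000 bp.

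Exonic peaks were present in the replicates in shares below those of the whole list. A peak was called present when the replicate's own relaxed list had a summit within 100 bp. Exonic peaks were present in replicate 2 for 1681 of 2774, or 60.6% (58.8 to 62.4), beside 66.8% of all relaxed peaks. In replicate 3 they were present for 1113, or 40.1% (38.3 to 42.0), beside 55.0%. Both replicates held 496 of them, 17.9% (16.5 to 19.4), beside 34.2%. Neither replicate held 476 (17.2%).

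Coding and 3' UTR summits had close shares in replicate 2 and separate intervals in replicate 3. Replicate 2 held 60.7% of coding (58.0 to 63.3) and 60.5% of 3' UTR summits (58.0 to 63.0). Replicate 3 held 36.2% of coding (33.6 to 38.8) and 43.6% of 3' UTR summits (41.1 to 46.1). Both held 14.2% (12.4 to 16.2) and 21.1% (19.1 to 23.2). The coding summits were thus the class with the lowest share in both replicates, next to 31.5% of intronic and 30.3% of intergenic summits.

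Presence in both replicates rose with signal among exonic peaks as among all peaks. Below a signal of 22, both replicates held 1.13% of exonic and 1.27% of all peaks off chromosome 4. From 25 to 30 they held 18.9% and 17.9%, from 30 to 40 42.2% and 43.0%, and from 40 upward 77.5% (70.2 to 83.4) and 82.6% (81.7 to 83.4). The value from 30 to 40 combines 33.0% of coding (27.0 to 39.6) and 48.8% of 3' UTR summits (43.1 to 54.5), on either side of the value for all peaks (41.7 to 44.3). Only 5.44% of exonic peaks had a signal of 40 or more, against 26.2% of all peaks. The lower share over all signals therefore went with fewer strong peaks, and its cause was not tested.

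In some signal ranges, coding summits stood apart from intronic ones. From a signal of 30 to 40, replicate 3 held 49.8% of coding summits (43.0 to 56.5), 60.6% of 3' UTR summits (54.8 to 66.0) and 63.2% of intronic summits (61.3 to 65.2). Below a signal of 22, replicate 2 held 44.6% of coding (39.8 to 49.6) and 36.5% of intronic summits (34.6 to 38.4). The intervals of coding and intronic summits did not overlap in either case, while those of coding and 3' UTR summits did. Coding summits were lower in the replicate 3 case and higher in the replicate 2 case. All peaks off chromosome 4 stood at 60.8% and 37.2% in these cases. In replicate 3 from 22 to 25 the intervals were also apart. There it held 30.7% of coding (25.8 to 36.1) and 38.6% of intronic summits (36.6 to 40.6). In the other ranges of either replicate they overlapped. From 40 upward, replicate 3 held 89.4% of coding (77.4 to 95.4), 81.7% of 3' UTR (73.2 to 88.0) and 88.5% of intronic summits (87.2 to 89.7), so the order in replicate 3 was not the same at every signal.

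**Figure D3:**
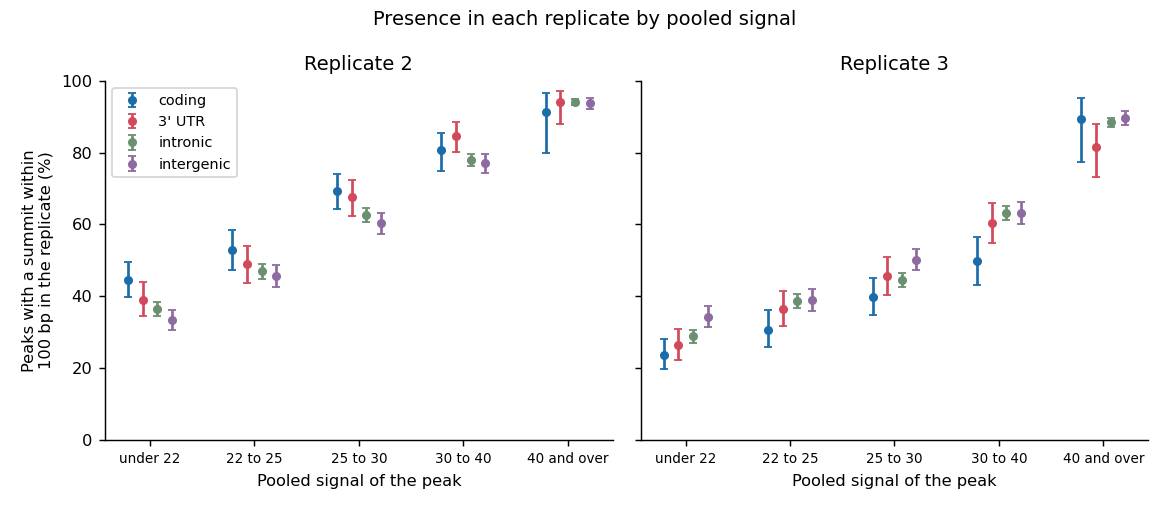
Share of peaks with a summit within 100 bp in replicate 2 (left) and replicate 3 (right), by signal of the list of both replicates; points are shares and bars are 95% Wilson intervals. Shares rise with signal in every class, and from 30 to 40 coding summits are at 49.8% in replicate 3 while intronic summits are at 63.2%.

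Where both replicates held an exonic peak, their signals were related only loosely. Across the 496 such peaks, Spearman's rho between replicate 2 and replicate 3 was 0.269 and Pearson's r of the log2 signals was 0.582. Across 3818 intronic peaks the values were 0.650 and 0.786. These are correlations across peaks that share the 2 libraries, and peaks are not independent replicates. The range of signal was narrower among exonic peaks, and its part in the difference was not tested.

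The same positional rule was then applied to each replicate's own relaxed list. Replicate 2 gave 3233 exonic peaks, of which 1774 were coding and 1459 in a 3' UTR. Replicate 3 gave 2710, of which 1284 were coding and 1426 in a 3' UTR. The coding share was thus 54.9% in replicate 2 and 47.4% in replicate 3. Only 456 of these peaks paired between the replicates as exonic summits, which is 14.1% of the former and 16.8% of the latter. With any summit of the other list within 100 bp counted, the shares were 15.2% and 17.9%, beside 34.0% for all relaxed peaks of either replicate.

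The position of a summit along its gene was not even in coding sequence. Coding sequence was divided into 5 equal parts from start to stop codon, and counts were set against the bases of each that lie over 500 bp from a TSS. The first of the 5 held 103 summits per Mb and the last 89.6, while the middle one held 50.7. The last part held 27.9% of coding summits (25.5 to 30.4) on 22.3% of the bases, and the middle part 15.8% (13.9 to 17.9), also on 22.3%. Of the 6 coding peaks in the IDR list, 3, those in otp, Pde1c and CG10357, lay in the last part.

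In 3' UTRs the density was lowest next to the stop codon. With the UTR divided in the same way, it was 209 per Mb in the first part, 248 in the next and 281 in the last. The median summit lay 680 bases after the stop codon (quartiles 282 and 1470). Of the 1485 summits, 681 (45.9%) lay within 500 bp of the transcript end, among them those of CG7872, scf, CG5984, REG, by and CG14505.

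**Figure D4:**
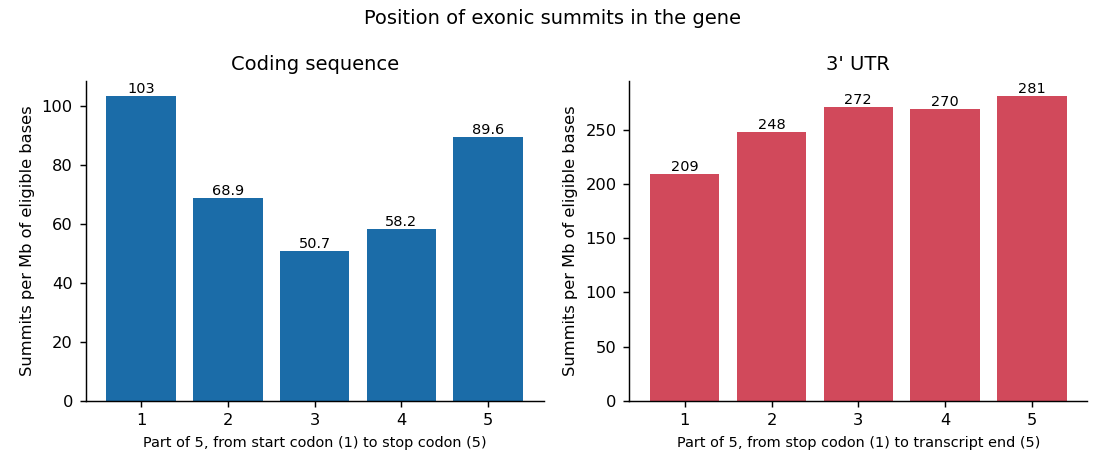
Summits per Mb of eligible bases in 5 equal parts of the spliced coding sequence (left, start to stop codon) and of the spliced 3' UTR (right, stop codon to transcript end). Coding density is 103 per Mb in the first part, 50.7 in the middle and 89.6 in the last; 3' UTR density runs from 209 to 281.

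The 3' UTRs that held summits were long. Counted by summit, the 3' UTR had a median length of 1542 bases (lower quartile 742). Counted by gene, the longest 3' UTR of each protein-coding gene had a median of 226 (upper quartile 604). These medians are not like for like, because a longer 3' UTR offers more bases on which a summit can fall. No excess of summits in long 3' UTRs can be read from them. The eligible length of a gene went with whether it held a summit. With genes ranked by eligible bases into 5 equal classes, 3.97% of the class with the fewest had an exonic summit and 32.8% of the class with the most did. Per 100 kb of eligible bases, the count went the other way, from 16.3 to 10.3.

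The summits were close to other annotated features in part of the cases. Of coding peaks, 35.9% lay wholly inside coding or 3' UTR sequence, and of 3' UTR peaks 77.0% did. Many peaks with a coding summit thus also covered bases outside coding and 3' UTR sequence. Another gene spanned the summit in 273 cases (9.84%), and in 173 (6.24%) such a gene was on the opposite strand. An annotated transposable element held 8 summits. Only 2 of the peaks lay within 500 bp of an IDR summit that was not itself exonic by the rule. After the genes with a 3' UTR summit, the next gene faced the opposite way, so that the transcripts converge, for 50.2% of summits. Of all protein-coding genes, the share was 43.3%, but the 2 shares are not like for like. The rule left out summits within 500 bp of any TSS, and a next gene on the same strand starts on that side. The share of all genes carries no such limit, so no excess at the summits can be read from it.

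Exonic peaks were spread over the chromosome arms in proportions close to those of all peaks. Arm 2L had 563, 2R 495, 3L 585, 3R 674 and X 456, and Y had 1. Per Mb of eligible exon sequence, counts apart from Y ran from 96.4 on X to 128 on 2L. Y stood at 17.0, from its 1 peak on 0.0587 Mb. The X peaks were divided into 141 coding and 315 3' UTR summits, while on 2L coding summits were the larger number (304 against 259).

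The 2774 peaks fell in 2150 protein-coding genes, which is 15.5% of the 13888 on these chromosomes. A peak present in both replicates was found in 484 genes, or 3.49%. Most genes had a single exonic peak (1673), 326 had 2, 94 had 3 and only 7 had 6 or more. The CG13123 gene itself had 0.

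The most exonic peaks were counted in Glut4EF, ps and lola, with 8 each, and in Myc, with 7. With 6 each, pum, aqz and hth were tied, and pum was taken for its higher summed signal. Of the peaks in aqz 1 was present in both replicates, and of those in hth 2 were. In lola, a zinc finger gene whose transcripts differ in their last exons, the 8 signals ran from 19.3 to 26.1, and 0 of the 8 were present in both replicates. In ps, a splicing regulator, signals ran from 21.3 to 41.4, and 3 of the 8 were present in both. Glut4EF, a transcription factor gene, had 1 of 8 in both replicates, at 45.1 (32.1 in replicate 2 and 15.1 in replicate 3). Myc, the growth regulator, had 1 of 7. Eligible bases were 12868 in Glut4EF, 11125 in ps, 23603 in lola and 8539 in Myc. Per kb of these, the counts were 0.622, 0.719, 0.339 and 0.820, and some genes with fewer peaks were denser.

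The pum gene encodes Pumilio, which binds 3' UTRs of messenger RNAs and represses their translation. All 6 of its peaks were present in replicate 2, and 4 in both replicates. Its strongest peak, of 50.8 (20.8 in replicate 2 and 27.4 in replicate 3), lay 21 bases into the coding sequence. Its 3' UTR peaks had signals of 38.4, 35.5 and 29.6.

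Gene lists chosen for embryos were then read against the 15.5% of all genes. The share of a list depends on the exon length of its genes, so summits per Mb of eligible bases stand beside it, with 114 for all genes. That 114 combines 69.9 in coding sequence with 253 in 3' UTRs, and genes with fewer eligible bases had higher densities. A list's density therefore also depends on its share of 3' UTR sequence and on the length of its genes. Neither was adjusted for. Of 12 ecdysone response factors measured, which turn hormone pulses into programmes of gene activity, 9 had an exonic peak, and 5 (41.7%) had one present in both replicates. Most of the list are nuclear receptors, but Eip74EF is an ETS-domain factor and br a zinc finger factor. The 9 genes held 19 peaks with a median signal of 25.02, and 229 per Mb. Among the 15000 relaxed peaks of highest signal, 5 of the 12 genes had an exonic peak, beside 729 of all genes. Apart from Hr4, EcR, the ecdysone receptor, had the highest signal, at 42.1 with 30.4 in replicate 2 and no summit within 100 bp in replicate 3. The highest peak of each of the 9 genes lay in its 3' UTR, apart from that of usp. Of genes chosen after their values were seen, the early response genes Eip75B and Eip74EF each had a 3' UTR peak present in both replicates, at 39.2 (19.1 in replicate 2 and 17.9 in replicate 3) and 38.4 (17.1 and 18.2).

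Translation factors had exonic peaks at a higher density but on fewer genes. Of 17, 8 (47.1%) had an exonic peak and 3 had one present in both replicates, at 360 per Mb. Only 1 of the 8 genes had an exonic peak among the 15000 peaks of highest signal. The highest signals were those of eEF1delta, an elongation factor subunit, at 30.3 (19.2 in replicate 2 and 10.1 in replicate 3) and of eIF5, at 27.9 (16.3 and 13.6). The eIF5 summit also lies in an exon of CG46312. The cytoplasmic ribosomal protein genes, which have short exons, stood at 12 of 91 (13.2%) and 395 per Mb, and at 3 among the 15000 highest peaks. Their highest was RpS26, at 46.5 (35.4 and 13.7), followed by RpL7 at 33.8, which was present in replicate 2 only. Both lists thus had a density above that of all genes while their gene shares differed.

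Muscle genes had exonic peaks in 8 of 15 (53.3%) and Polycomb and Trithorax group genes in 7 of 17 (41.2%). The muscle list held 12 peaks at 69.5 per Mb with 1 present in both replicates, and 2 of the genes had one among the 15000 highest peaks. It was led by TpnC73F, a troponin C, at 44.2 (32.3 and 10.9), and Tm1, a tropomyosin, at 30.2, present in replicate 2 only. Among chromatin regulators, Trl, which encodes the GAGA factor, had 41.6 (17.7 and 23.5) and Pc, the Polycomb protein, had 36.4 (25.1 and 10.9). The Trl summit also lies in an exon of CG42507. The 8 Polycomb and Trithorax peaks stood at 97.3 per Mb, below the 114 for all genes, and 3 of them were present in both replicates.

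Of 8 Hox genes, 2 had an exonic peak, at 118 per Mb. Antp, which specifies thoracic identity, had the highest signal outside the IDR list among the listed genes, at 64.5 with 41.6 in replicate 2 and 27.1 in replicate 3, in its 3' UTR. Ubx had 29.2, present in replicate 2 only. Of 16 Notch and adhesion genes, 6 had a peak, at 86.8 per Mb. Nrg at 37.3 and alpha-Cat at 32.7 were the highest, both present in both replicates. The alpha-Cat summit lies in an annotated transposable element. Of 12 metabolic enzyme genes, 4 had one, at 234 per Mb, with Gpdh1 at 52.0 (39.4 and 10.8) and Ald1 at 32.5. The Ald1 peak was present in replicate 2 only.

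The remaining lists held few peaks. Per Mb of eligible bases, kinesin and dynein genes held 21.5, cytoskeletal 51.8, insulator 117, heat shock 120 and matrix genes 12.9. Kinesin and dynein genes had 3 of 16, led by Klc at 33.5 and pav at 29.1, the latter present in neither replicate. Cytoskeletal genes had 3 of 21, led by Act5C at 36.3 and jar at 25.3. Insulator protein genes had 3 of 14, with mod(mdg4) at 22.3 and Cp190 at 21.2. The mod(mdg4) summit also lies in exons of pre-mod(mdg4) genes and in a 5' UTR, and the Cp190 summit in an exon of Zip88E. Heat shock genes had 3 of 17, with Hsc70-3 at 25.5 and Hsp23 at 20.2, and matrix genes had 1 of 12, which was wb, a laminin, at 27.2. These signals were near the median of the exonic peaks or below it, except those of Klc, pav, Act5C and wb. Of the peaks named for these lists, only that of Klc was present in both replicates. Those of Act5C, jar, Cp190 and Hsp23 were present in replicate 2 only. Like pav, those of mod(mdg4), Hsc70-3 and wb were present in neither. The segmentation list had 0 of 24 genes, which allows a share of up to 12.5%, and the yolk and chorion list had 0 of 12, which allows up to 25%.

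**Figure D5:**
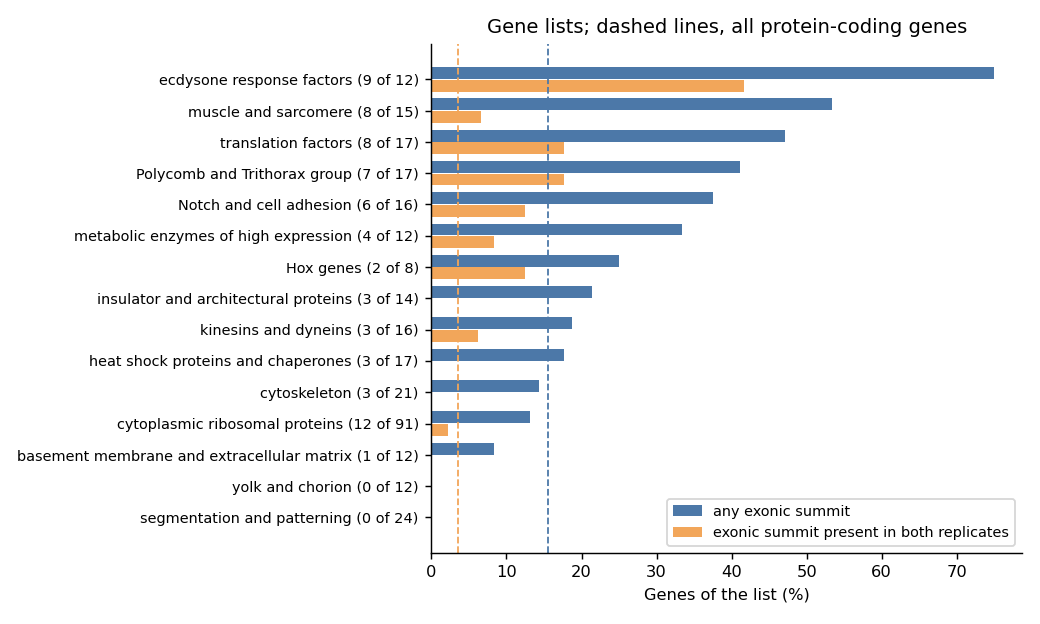
Share of genes in each list with any exonic summit (blue) and with one present in both replicates (orange); dashed lines mark all protein-coding genes (15.5% and 3.49%). The ecdysone response factors stand highest in both measures (9 of 12 genes with any and 5 of 12 with one in both), and the segmentation and yolk lists are at 0.

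Base composition of the summit windows followed the class of sequence. In windows of 201 bp, mean GC content was 48.6% (SD 7.69) at the 1289 coding summits and 52.0% (SD 7.07) over all windows of eligible coding sequence. At the 1485 3' UTR summits it was 34.99% (SD 6.50), and over all eligible 3' UTR windows 35.9% (SD 7.53). Both classes were thus lower in GC than their own sequence class, by less than 1 SD. The same held for intronic summits (37.8% against 40.3%) and intergenic summits (37.8% against 40.7%), so it was not particular to exonic peaks.

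Of 7 motifs searched on both strands, with a window counted once however many matches it held, 6 were in a share of exonic windows that was near or below that of all relaxed windows. GAGAG, the GAGA element, was in 21.0% of exonic windows (19.5 to 22.6) and 21.5% of all windows off chromosome 4. CAGCTG was in 7.75% and 8.31%, and CAGGTAG, the Zelda site, in 1.08% and 0.902%. TATCGAT, the DNA replication element, was in 2.60% (2.07 to 3.26) against 5.09%, and ACAGTG in 7.97% (7.02 to 9.03) against 11.3%. Intronic and intergenic summit windows held TATCGAT in similar shares, 2.20% and 2.47%. GATAAG was in 8.33% (7.36 to 9.41) against 10.4%. Within coding sequence it was in 8.53% of summit windows (7.13 to 10.2) and 6.96% of all windows. The same order held in introns (10.8% and 8.56%) and intergenic sequence (8.99% and 7.91%).

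The seventh motif, CAGCAGCAG, was in 2.60% of exonic and 1.38% of all windows, but in 4.73% of coding summit windows and 5.10% of all coding windows. ACAGTG was in 7.21% of 3' UTR summit windows (5.998 to 8.634) and 6.02% of all 3' UTR windows. Its shares lay further apart in introns (11.4% and 7.42%) and intergenic sequence (10.3% and 6.99%). Among the exonic peaks of the IDR list, ACAGTG was in 5 of the 12 in a 3' UTR and in 0 of the 6 in coding sequence. The 5 were those of CG7872, CG33307, by, stas and qvr. They are 27.8% of the 18, while 19.9% of all IDR windows off chromosome 4 held ACAGTG.

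The word AGNNGGCGC, shown above in its sequence context, was in the windows of 74 of the 2774 peaks (2.67%, 2.13 to 3.34), against 2.13% of all relaxed windows off chromosome 4. It was in 5 of the 18 in the IDR list, or 27.8% (12.5 to 50.9): otp, Pde1c, klar, CG10357 and Hr4. Of the other 2756 exonic peaks 2.50% held it, and of all IDR windows off chromosome 4 3.09% did. It was common in coding sequence as such, in 3.79% of all eligible coding windows, and rarer in 3' UTRs, in 0.982%.

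The share with this word was highest at the strongest coding summits. From a signal of 40 upward, 8 of 47 coding windows held it, or 17.0% (8.89 to 30.1), and 4.81% of 3' UTR windows did (2.07 to 10.8). In the same signal range it was in 1.92% of intronic (1.47 to 2.52) and 4.49% of intergenic windows (3.37 to 5.95). Below a signal of 22, it was in 3.33% of coding windows (1.96 to 5.62). The word was chosen on these windows, so these shares are a description of them.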

How the data were processed

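Each peak carries a signal value and a −log10 q-value as deposited by the authors, for each replicate and for both together. The signal ranked and described peaks within a list, and the −log10 q-values were copied and not used in a comparison. For the aligner, the peak caller, its settings and the IDR threshold, nothing is given in the sources used here. The lists deposited on dm3 and the control were not used here.

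Summits were placed on exons of every protein-coding transcript of Ensembl release 115, with transposable elements kept apart, and a summit that was coding in any transcript counted as coding. Shares carry 95% Wilson intervals. Replicate presence was a summit within 100 bp. Bases came from the RefSeq Release 6 genome. Python 3.11.15 with NumPy 2.4.6, pandas 2.3.3, SciPy 1.17.1, Biopython 1.88 and matplotlib 3.10.9 was used, and the functions were tested on simulated data.

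The genes named are those of exonic peaks in the IDR list, of the 10 coding and 10 3' UTR peaks of highest signal, the 5 genes with the most exonic peaks, and up to 2 genes per list with the highest signal. The peaks, the 15 gene lists and the motifs were chosen with earlier results of these data known. The samples were not compared as groups, since there is 1 group, and no interval speaks to how collections of embryos vary. No 2 of the relaxed lists shared an identical entry. Alternatives changed the TSS distance, transcripts, presence rule, list size, windows and replicate.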

Additional observations from a re-analysis of the deposited data

How the results depend on the processing

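No paired analysis was possible because the study has 1 group. The coding share of exonic peaks was 49.3% with a TSS distance of 250 bp, 38.5% with 1000 bp, 44.4% when 3' UTR came before coding, 51.3% with canonical transcripts and 41.5% among the 15000 peaks of highest signal. With 250 and 1000 bp, the median position in coding sequence was 50.1% and 61.7%, and the median distance to the stop codon 635 and 756 bases. Presence in replicate 2, replicate 3 and both was 52.2%, 31.3% and 10.9% with summits within 50 bp, 67.1%, 48.0% and 26.2% within 200 bp, 72.4%, 54.0% and 34.9% with any overlap of peaks, and 83.8%, 60.2% and 46.7% among the 15000 highest peaks. Those 15000 held 798 exonic peaks with a median signal of 33.2, 2.26% of them in the IDR list, at 32.8 per Mb, in 729 genes instead of 2150 and in 24 genes of the lists instead of 69. Applied to 1 replicate's list alone, the rule gave a coding share from 47.4% to 54.9% and a median signal from 12.2 to 16.8, on the scales of those lists. Windows of 50 and 200 bp to each side held any of the 7 motifs in 24.3% and 64.3%. Where the construction of an alternative does not give the cause, the cause was not tested. The other 60 values of these results stayed within the interval for shares or within 1.5 times for counts. For median signal, coding position and GC, they moved by less than the SD of the values from the 2 replicates' own lists. That SD was 3.30 for signal, from lists on separate scales, 2.38 for position in percent and 1.45 for GC in percent. Leaving out summits also in a 5' UTR, and using RefSeq start sites, were chosen after seeing the data. Depth is unknown, so a peak missing from a replicate list does not show that its signal was absent there.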
